A study of Mus musculus with 12 samples.

Results

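Mouse mesenchymal stem cells (MSCs) exposed to TGF-β1 in the presence of M-MDSC supernatant were compared with the same cells exposed to TGF-β1 in the presence of G-MDSC supernatant, with 3 RNA-seq libraries on each side and 6 of the 12 libraries of the series in all. Both arms received TGF-β1 at 5 ng/mL, so the kind of myeloid cell that conditioned the medium was the only labelled difference between them. The MSCs were C57BL/6 bone marrow cells obtained from a supplier. The MDSCs were not isolated from a diseased animal but were induced from C57BL/6 bone marrow with GM-CSF and IL-6 and then sorted, M-MDSCs as CD11b+Ly6G-Ly6C high cells and G-MDSCs as CD11b+Ly6G+Ly6C low cells, and the medium that each had conditioned was collected afterwards. The remaining groups were TGF-β1 without supernatant at 5 ng/mL and untreated MSCs, each with 3 libraries, and they served here as reference levels. The labels do not say whether the 3 libraries of a group came from separate cultures or from separate batches of supernatant, so p-values measure the spread between these libraries, which may be technical. Genes entered the comparison when their FPKM (fragments mapped to a gene, scaled to its exon length and to the size of the library) was 1 or more in 3 or more of the libraries without supernatant, which held for 11619 of 55401 annotated genes.

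Myeloid-derived suppressor cells are immature myeloid cells that restrain immune responses, and their monocytic (M) and granulocytic (G) kinds secrete different sets of soluble factors. TGF-β1 drives MSCs towards myofibroblasts, cells that express contractile proteins such as α-smooth muscle actin and deposit collagen. Interferons are cytokines that bind receptors on most cells, activate transcription factors such as IRF9, and switch on interferon-stimulated genes through a promoter element called the interferon-stimulated response element (ISRE). A separate set of inflammatory genes, among them neutrophil- and monocyte-attracting chemokines, is driven largely by NF-κB and related factors.

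The 6 supernatant libraries held from 73977669 to 84565450 counts, and their scaling factors lay between 0.993 and 1. Of the MSC markers, Itgb1 lay between 246.6 and 394.1 FPKM over all 12 libraries, Cd44 between 38.5 and 65.3 FPKM, Ly6a was present in every library, and Kit and the endothelial gene Pecam1, which MSCs should lack, reached at most 0.0117 and 0.218 FPKM. Libraries stood apart in another way. The summed FPKM of 20 hepatocyte markers, led by albumin (Alb), was 101, 102 and 108 in G-MDSC replicates 1, 2 and 3 and 91.9 in M-MDSC replicate 3, against 1.52 and 1.59 in M-MDSC replicates 1 and 2 and at most 0.877 in the 6 libraries without supernatant. Alb was at 34.4, 34.2 and 37.2 FPKM with G-MDSC supernatant and at 31.6 FPKM in M-MDSC replicate 3, and no count was recorded in any other library. The 10 kidney tubule markers summed to 49.4, 64.0 and 59.7 FPKM with G-MDSC supernatant and to 18.6, 16.3 and 84.7 FPKM in M-MDSC replicates 1, 2 and 3. Liver and kidney transcripts were therefore uneven between the arms, and in bulk RNA fewer cells of a type and less RNA per cell cannot be told apart. The 10 granulocyte markers summed to 0.430, 0.012 and 5.23 FPKM in G-MDSC replicates 1, 2 and 3. In M-MDSC replicates 1, 2 and 3 they summed to 1.51, 0.271 and 0.690 FPKM, and without supernatant to at most 2.09 FPKM. In G-MDSC replicate 3, 7 of the 10 had more than 3 counts. S100a8 and Ly6g were at most 0.51 and 0.20 FPKM, so most of that sum came from other members. Red cell markers summed to at most 4.25 FPKM in the supernatant libraries, and the monocyte marker Lyz2 reached at most 2.29 FPKM. The 10 monocyte markers summed to 22.6 to 29.6 FPKM with supernatant and to 15.6 to 29.0 FPKM without, most of it Cd14. None of the hepatocyte and kidney markers reached the FPKM minimum without supernatant, so none of them was among the genes tested. Each result below was recomputed without M-MDSC replicate 3, and M-MDSC replicate 3 was also set alone against the G-MDSC libraries, since these 4 libraries all carry the liver transcripts. The values with M-MDSC replicate 3 alone rest on 1 library in that arm and are given as sizes and directions without a test.

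**Figure D1:**
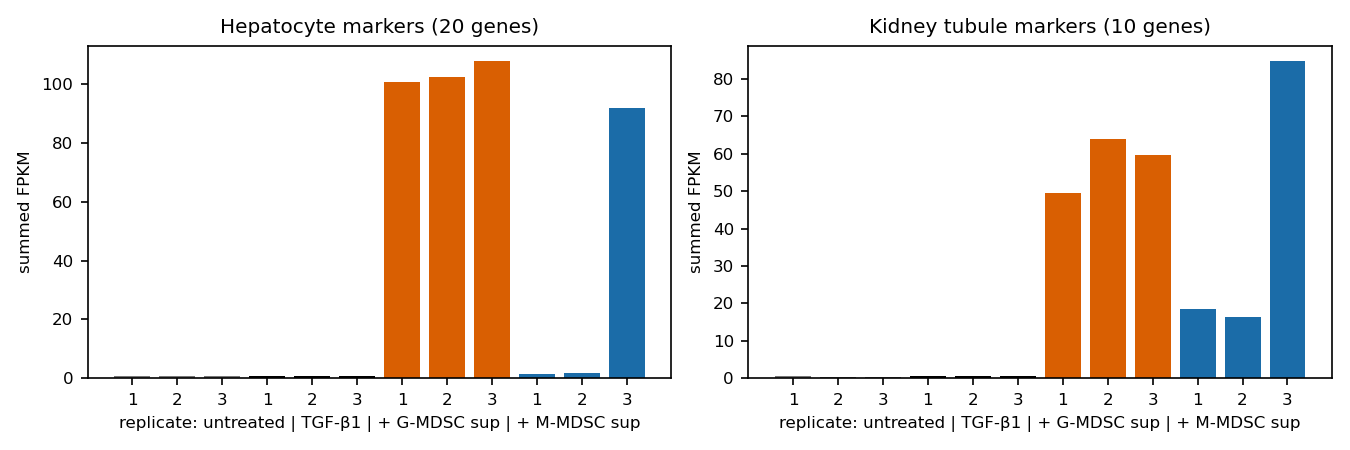
Summed FPKM of 20 hepatocyte markers (left) and 10 kidney tubule markers (right), 1 bar per library, in the order untreated, TGF-β1, TGF-β1 with G-MDSC supernatant and TGF-β1 with M-MDSC supernatant. M-MDSC replicate 3 stands at 91.9 FPKM for the hepatocyte markers beside 101 to 108 FPKM in the G-MDSC libraries, whereas M-MDSC replicates 1 and 2 stand near the libraries without supernatant.

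With edgeR the supernatants differed in few genes, and those that were higher with M-MDSC supernatant were mostly interferon-stimulated genes. At an adjusted p below 0.05, the threshold called passing the test here, 17 genes (0.146% of the genes tested) differed, of which 14 (0.12%) were higher and 3 (0.0258%) were lower with M-MDSC supernatant when G-MDSC supernatant is the reference. Of the 17 genes, 13 were members of the interferon lists, and the others were Lgals9, which was higher, and Lif, Nfkbiz and Psmd5, which were lower. The sizes were moderate, from 0.35 to 1.38 on the log2 scale for the 14 higher genes and from 0.54 to 0.78 for the lower ones, and 4 of the 17 genes differed more than 2-fold. In all 17 genes the 3 libraries of one arm lay entirely above those of the other, which was the case for 11.7% of all genes tested, 5.87% with the M-MDSC libraries above and 5.84% with them below. The median over all genes was 0.000046 on the log2 scale, which the scaling of the libraries sets near 0. Leaving out an M-MDSC library shifted this balance, to 7 higher and 5 lower without M-MDSC replicate 3, 8 and 8 without M-MDSC replicate 2 and 8 and 7 without M-MDSC replicate 1. Without a G-MDSC library it was 6 and 3 without replicate 1, 8 and 3 without replicate 2 and 12 and 5 without replicate 3, and DESeq2 called 111 genes, 67 higher and 44 lower. Without M-MDSC replicate 3, 9 of the 17 genes still passed (0.103% of all genes passed there). All 17 kept their direction without that library and with it alone. As the arms did not overlap in these genes, the direction could hardly change, so this is no further support. At an unadjusted p below 0.05, 6.29% of genes were called, 410 of them higher (3.53%) and 321 lower (2.76%), and these shares are the background for the counts of list members given below.

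**Figure D2:**
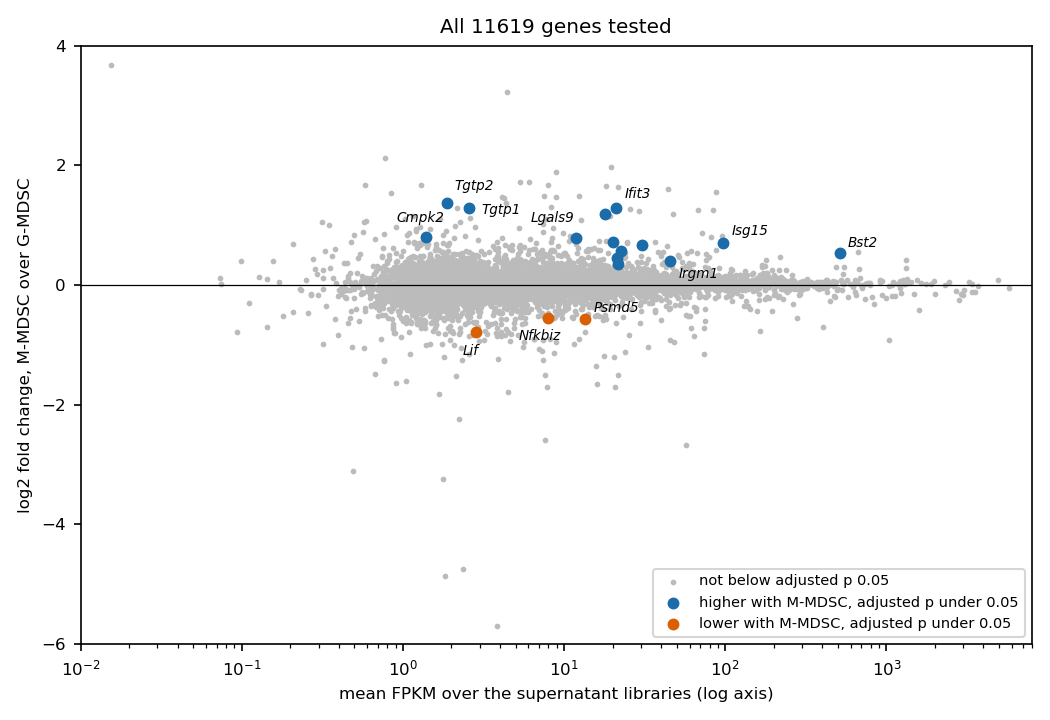
Log2 fold change of M-MDSC over G-MDSC supernatant (vertical axis) against mean FPKM over the 6 supernatant libraries (horizontal, log axis) for each of the 11619 genes tested, with genes at an adjusted p below 0.05 in colour. The 14 higher and 3 lower genes lie at moderate fold changes, while many points farther from 0 did not pass the test.

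The type I interferon list, the genes that interferon-α and -β induce in most cells, held the highest share of members that differed between the supernatants, among the lists examined. Of its 54 members 45 were tested, 36 (80.0%, against 3.53% of all genes) were higher with M-MDSC supernatant at an unadjusted p below 0.05 and 1 (2.22%, against 2.76%) was lower, and 9 passed the test, all of them higher (25 with DESeq2). The median log2 fold change of the tested members was 0.44, and 41 of 45 were above 0. Mean log2(FPKM + 1) over the list was 3.97, 3.95 and 3.98 in the G-MDSC libraries and 4.36, 4.35 and 4.36 in the M-MDSC libraries, so the arms were apart by 0.387 with SDs of 0.013 and 0.0050. The list had stood at 2.84, 2.82 and 2.98 in untreated cells and at 1.785, 1.901 and 1.866 under TGF-β1 alone, where 40 of 45 members passed as lower than in untreated cells (18.4% of all genes did, and 16.5% passed as higher). Both supernatants carried these genes above their level under TGF-β1 alone, with 43 of 45 members passing as higher for each supernatant (2.45% of all genes with M-MDSC and 2.69% with G-MDSC supernatant) and median log2 fold changes of 3.12 for M-MDSC and 2.45 for G-MDSC supernatant. These comparisons share the TGF-β1 libraries. Without M-MDSC replicate 3 the median between supernatants was 0.43 with 36 members higher at an unadjusted p below 0.05 (2.84% of all genes were higher and 2.56% lower there), and with M-MDSC replicate 3 alone it was 0.43.

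Promoter sequences of 4 of the higher genes are shown because they let the ISRE be read beside the expression values, and those of Cxcl1 and Lif are shown because their levels were lower in the M-MDSC libraries (for Cxcl1 without passing the test). Each is the stretch of 200 bases that precedes the transcription start, from RefSeq on GRCm38.p6, written 5′ to 3′ on the gene's strand. Capitals mark matches to the ISRE core, which is GAAA, any 2 bases and GAAA again, or to the NF-κB motif, which is GGGA, any 2 bases and TTCC. Both strands were searched, so that an ISRE match can also read as TTTC, any 2 bases and TTTC. Adjacent ISRE matches in Isg15 and in Irgm1 overlap, as do the pair of NF-κB matches in Cxcl1.
Ifit3, chr19:34583329-34583528, plus strand: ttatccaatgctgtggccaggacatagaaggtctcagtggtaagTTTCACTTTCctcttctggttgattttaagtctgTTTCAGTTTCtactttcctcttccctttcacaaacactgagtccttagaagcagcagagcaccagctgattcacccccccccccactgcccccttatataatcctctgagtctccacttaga
Isg15, chr4:156200819-156201018, minus strand: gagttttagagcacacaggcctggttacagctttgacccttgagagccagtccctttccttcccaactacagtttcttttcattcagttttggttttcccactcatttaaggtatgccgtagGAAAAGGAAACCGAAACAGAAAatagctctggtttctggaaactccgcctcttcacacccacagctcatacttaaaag
Irgm1, chr11:48871421-48871620, minus strand: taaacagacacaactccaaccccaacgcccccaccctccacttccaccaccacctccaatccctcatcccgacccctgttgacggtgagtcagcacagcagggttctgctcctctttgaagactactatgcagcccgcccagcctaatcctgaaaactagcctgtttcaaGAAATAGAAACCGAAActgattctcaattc
Tgtp1, chr11:48992247-48992446, minus strand: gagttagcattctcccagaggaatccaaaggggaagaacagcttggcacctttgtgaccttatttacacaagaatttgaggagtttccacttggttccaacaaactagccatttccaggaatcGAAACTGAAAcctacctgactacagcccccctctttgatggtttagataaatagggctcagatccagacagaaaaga
Cxcl1, chr5:90891045-90891244, plus strand: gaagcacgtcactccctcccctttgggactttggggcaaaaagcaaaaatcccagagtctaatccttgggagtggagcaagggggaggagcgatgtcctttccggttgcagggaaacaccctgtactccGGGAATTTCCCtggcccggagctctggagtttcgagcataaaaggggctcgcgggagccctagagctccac
Lif, chr11:4257368-4257567, plus strand: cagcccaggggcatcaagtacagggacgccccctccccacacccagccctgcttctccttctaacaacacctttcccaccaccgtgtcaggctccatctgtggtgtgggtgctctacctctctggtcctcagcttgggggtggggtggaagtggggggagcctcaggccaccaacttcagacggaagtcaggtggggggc

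Over the 250 bases before the start, Isg15 held 3 ISRE matches, Ifit3 and Irgm1 held 2 each and Tgtp1 held 1. Promoter windows were found for 15 of the 17 genes that passed, 13 of them higher and 2 lower, and 10 of the 13 higher genes (76.9%) and 0 of the 2 lower genes held an ISRE match, whereas 978 of 32851 windows of this length in the table (2.98%) did. Among the list members with a window, an ISRE match was present in 12 of 34 (35.3%) of the type I interferon list and in 12 of 21 (57.1%) of the interferon-γ list, and in 0 of 14 of the chemokine list. The NF-κB motif was present in 397 windows (1.21%) and in 3 of 14 (21.4%) of the chemokine list. It was also present in 2 of 34 (5.88%) of the type I interferon list and in 2 of 21 (9.52%) of the interferon-γ list. Of the genes that passed, 0 of the 13 higher and 0 of the 2 lower ones held it. These are matches of letters and not measurements of binding.

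Among the effectors of the antiviral response, the IFIT proteins bind foreign RNA, and Ifit3 and its near copy showed wide gaps. Ifit3 (ENSMUSG00000074896, chr19:34583531-34588731) stood at 12.3, 12.1 and 12.5 FPKM with G-MDSC supernatant and at 27.2, 30.5 and 31.9 FPKM with M-MDSC supernatant. All M-MDSC libraries lay above all G-MDSC libraries, the latter being close to untreated cells (8.88, 8.51 and 12.5 FPKM) and far above TGF-β1 alone (1.32, 1.38 and 1.18 FPKM). The difference was 1.28 ± 0.13 on the log2 scale (SE, n = 3 libraries per arm), a 2.43-fold higher level (edgeR, adjusted p = 0.00314). Ifit3b, a near copy of Ifit3 whose reads may be shared with it, stood at 11.6, 11.2 and 10.5 FPKM against 24.4, 25.4 and 25.2 FPKM (log2 fold change 1.18 ± 0.16, adjusted p = 0.0183). Ifit1 (ENSMUSG00000034459, chr19:34640871-34650009) stood at 23.5, 22.6 and 24.3 FPKM against 35.6, 38.8 and 37.5 FPKM, a log2 fold change of 0.67 ± 0.06 (adjusted p = 0.00242). For Ifit1 the G-MDSC libraries lay just below the untreated cells (26.5, 25.2 and 27.1 FPKM) and the M-MDSC libraries above them. Ifit1 and Ifit3 also passed without M-MDSC replicate 3, and Ifit3b did not (1.17, adjusted p = 0.085).

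Isg15, a ubiquitin-like protein that is conjugated to other proteins after interferon, stood at 77.2, 76.5 and 67.5 FPKM with G-MDSC supernatant and at 122, 121 and 116 FPKM with M-MDSC supernatant (log2 fold change 0.70 ± 0.11, adjusted p = 0.0424). Bst2 (tetherin), a membrane protein that holds budding virus at the cell surface, was the most abundant gene that passed, at 421, 443 and 395 FPKM against 618, 615 and 584 FPKM (0.53 ± 0.08, adjusted p = 0.0445). For both genes M-MDSC and G-MDSC supernatant lay far above the untreated cells, which held 15.2 to 20.4 FPKM of Isg15 and 70.2 to 76.9 FPKM of Bst2. Parp12, an ADP-ribosyltransferase, stood at 17.4, 19.0 and 17.7 FPKM against 25.1, 25.0 and 23.8 FPKM (0.45 ± 0.05, adjusted p = 0.00292). Tor3a, an interferon-responsive torsin ATPase, stood at 17.9, 18.6 and 18.3 FPKM against 26.3, 27.8 and 27.1 FPKM (0.57 ± 0.08, adjusted p = 0.0207). Cmpk2, a mitochondrial nucleotide kinase, was low throughout but did not overlap, at 1.03, 1.03 and 0.986 FPKM against 1.71, 1.74 and 1.86 FPKM (0.80 ± 0.11, adjusted p = 0.0270). Of these 5 genes Parp12 also passed without M-MDSC replicate 3, whereas Isg15, Bst2, Tor3a and Cmpk2 did not, with log2 fold changes from 0.56 to 0.77 there and adjusted p from 0.10 to 0.12. Ifitm3, which blocks virus entry, was the most abundant of the interferon genes named here at 1186, 1239 and 1143 FPKM against 1404, 1449 and 1471 FPKM, and its 0.28 ± 0.06 did not pass with edgeR (adjusted p = 0.131) but did with DESeq2 (0.00356).

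Of the sensors and transcription factors of the pathway named here, Ddx58 alone passed the test with edgeR. Ddx58 encodes RIG-I, a cytoplasmic sensor of viral RNA, and stood at 18.9, 18.7 and 19.5 FPKM with G-MDSC supernatant and at 23.9, 24.1 and 24.7 FPKM with M-MDSC supernatant. It was the smallest difference that passed, 0.35 ± 0.05 on the log2 scale (adjusted p = 0.0183), with narrow groups. Ddx58 no longer passed when any 1 of the supernatant libraries other than G-MDSC replicate 3 was left out (adjusted p from 0.0553 to 0.124, with 0.34 and 0.103 without M-MDSC replicate 3), and with M-MDSC replicate 3 alone the log2 fold change was 0.38. The related sensors Dhx58 and Ifih1, which like the genes named after them in this paragraph were chosen after their values were seen, did not pass at 0.58 ± 0.10 (adjusted p = 0.0726) and 0.34 ± 0.07 (adjusted p = 0.136), although their libraries did not overlap. The transcription factors Irf7, Irf9 and Stat2, which carry the interferon signal to the promoters, had log2 fold changes of 0.73, 0.38 and 0.35 with adjusted p between 0.117 and 0.21 and no overlap. With DESeq2 all 5 of these genes passed, with adjusted p of 5.23e-05 for Dhx58, 0.00179 for Ifih1, 6.41e-05 for Irf7, 0.00732 for Irf9 and 0.0158 for Stat2. Usp18, which removes ISG15 from proteins and dampens the receptor, went from 0.788 to 1.46 FPKM under TGF-β1 alone to 47.4 to 50.4 FPKM with G-MDSC and 71.2 to 74.3 FPKM with M-MDSC supernatant, and its difference between supernatants of 0.56 ± 0.17 did not pass with edgeR (adjusted p = 0.474) or DESeq2 (0.0662) but did with only the supernatant libraries in the edgeR fit (0.00634). The receptor chains Ifnar1 and Ifnar2 overlapped between the arms, with 95% intervals of -0.35 to 0.25 and -0.10 to 0.22 on the log2 scale. The ligand genes Ifnb1 and Ifng had no count in any of the 12 libraries.

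Members of the type I list that did not follow were few. Ifi27, a mitochondrial interferon-induced protein, was the member on the lower side, at 91.6, 97.7 and 90.7 FPKM with G-MDSC and 84.7, 78.0 and 78.8 FPKM with M-MDSC supernatant (-0.21 ± 0.09, unadjusted p = 0.0408, adjusted p = 0.772). Oasl1, Oasl2 and Trim25 had log2 fold changes of -0.29, -0.01 and -0.23 with overlapping libraries, and Ifit2 had 0.11. Of the 9 members below the FPKM minimum, 7 had all M-MDSC libraries above all G-MDSC libraries (2.96% of the 14897 genes below the minimum with any reads in a supernatant library did, and 5.28% had them below) and 7 stayed under 1 FPKM in every supernatant library. The most abundant of them was Mx2, an interferon-induced antiviral GTPase, at 4.76, 4.21 and 3.65 FPKM against 7.07, 7.87 and 7.47 FPKM. With the minimum applied over all 12 libraries, Mx2 had a log2 fold change of 0.83 (adjusted p = 0.755) and Parp14 one of 0.61 (adjusted p = 0.126).

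**Figure D3:**
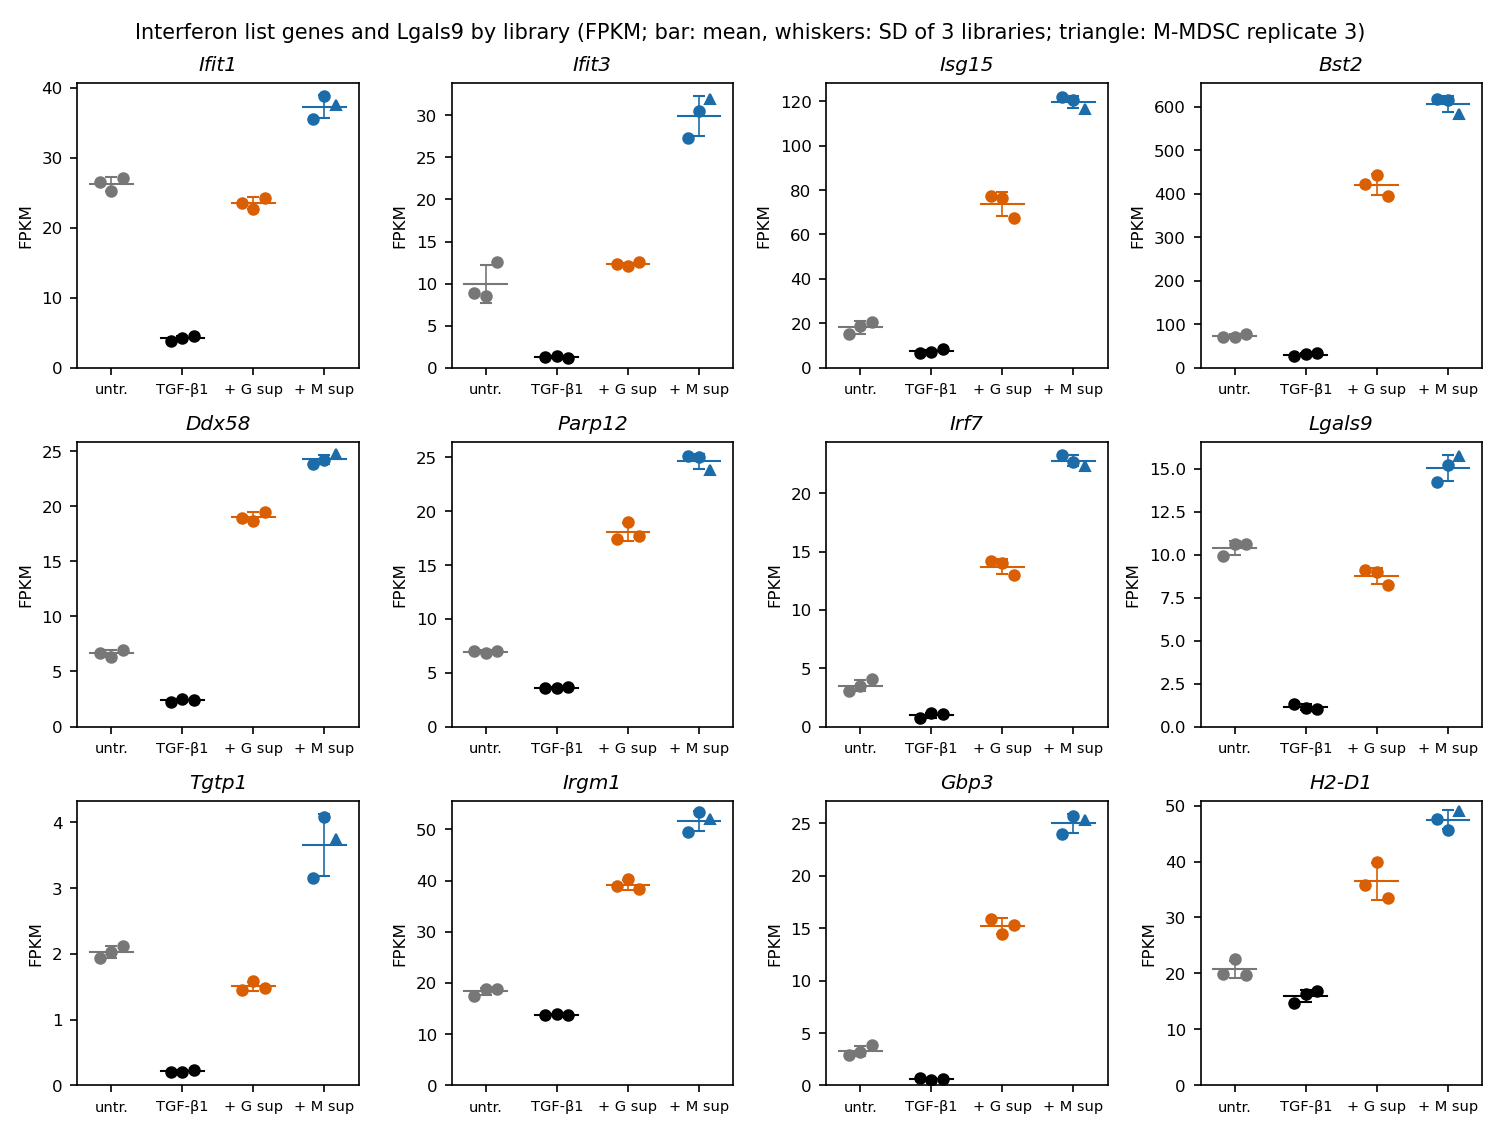
FPKM of 11 genes of the interferon lists and of Lgals9 in each library (points), with the mean and SD of the 3 libraries of a group, and M-MDSC replicate 3 drawn as a triangle. In each panel all 3 M-MDSC libraries lie above all 3 G-MDSC libraries and both arms lie above TGF-β1 alone.

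The interferon-γ list holds the immunity-related GTPases and guanylate-binding proteins, which attack the vacuoles of intracellular microbes, and the machinery of MHC class I antigen presentation. Of its 43 members 24 were tested, and 17 (70.8%) were higher and 0 lower with M-MDSC supernatant at an unadjusted p below 0.05, with a median log2 fold change of 0.34. The 4 members that passed were all GTPases, and DESeq2 called 11 members, all higher. Tgtp1 (ENSMUSG00000078922, chr11:48985327-48994172) stood at 1.46, 1.58 and 1.49 FPKM with G-MDSC and at 3.15, 4.08 and 3.75 FPKM with M-MDSC supernatant, a log2 fold change of 1.28 ± 0.11 (adjusted p = 0.00174). Tgtp2, a close copy of Tgtp1, stood at 0.962, 1.19 and 0.963 FPKM against 2.51, 2.92 and 2.65 FPKM (1.38 ± 0.16, adjusted p = 0.00651), and the counting may have divided reads between the copies. Both genes were at or below 0.232 FPKM under TGF-β1 alone. Irgm1, which regulates the other GTPases of its family, stood at 38.9, 40.2 and 38.3 FPKM against 49.5, 53.4 and 52.0 FPKM (0.40 ± 0.04, adjusted p = 0.00302). Gbp3 stood at 15.9, 14.4 and 15.3 FPKM against 24.0, 25.7 and 25.3 FPKM (0.72 ± 0.11, adjusted p = 0.0470). The Gbp3 difference was 0.71 and did not pass without M-MDSC replicate 3 (adjusted p = 0.163), while Tgtp1, Tgtp2 and Irgm1 did. Igtp and Gbp2, named after their values were seen, had 0.68 ± 0.14 (adjusted p = 0.139) and 0.45 ± 0.12 (adjusted p = 0.340), and passed with DESeq2 (0.000521 and 0.0442).

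The MHC class I genes named here did not pass the test with edgeR, while with DESeq2 H2-D1, B2m and Psmb10 did (adjusted p = 0.00287, 0.0124 and 0.0164). H2-D1, a classical heavy chain, stood at 35.8, 40.0 and 33.5 FPKM with G-MDSC and 47.5, 45.7 and 49.1 FPKM with M-MDSC supernatant (0.38 ± 0.08, adjusted p = 0.143). B2m, the light chain, stood at 655, 622 and 561 FPKM against 704, 749 and 748 FPKM (0.26 ± 0.06, adjusted p = 0.183). The peptide transporter gene Tap1 and the immunoproteasome subunit gene Psmb10 had 0.45 ± 0.13 and 0.47 ± 0.11 (adjusted p = 0.380 and 0.205). H2-K1 had a wide spread in every group and overlapped (0.34 ± 0.36). Serping1, a complement inhibitor on the same list, was the single tested member below 0, at -0.52 with overlapping libraries. Of 19 members below the FPKM minimum 12 stayed under 1 FPKM in every supernatant library, and 5 had all M-MDSC above all G-MDSC libraries (against the same 2.96%), among them Gbp7 at 1.20, 1.26 and 1.68 FPKM against 1.86, 2.12 and 2.53 FPKM. Without M-MDSC replicate 3 the list's median was 0.36 with 16 members higher and 1 lower, and with M-MDSC replicate 3 alone it was 0.41.

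Lgals9, which encodes galectin-9, a secreted sugar-binding protein that acts on T cells, was the gene outside the interferon lists that rose. It stood at 9.10, 8.98 and 8.26 FPKM with G-MDSC and at 14.2, 15.2 and 15.8 FPKM with M-MDSC supernatant (0.78 ± 0.09, adjusted p = 0.00651), against 1.03 to 1.33 FPKM under TGF-β1 alone and 9.95 to 10.6 FPKM in untreated cells. G-MDSC supernatant therefore left Lgals9 just under the untreated level and M-MDSC supernatant carried it above. Ly6a, which encodes the stem cell antigen Sca-1 used to identify mouse MSCs, had a related course without passing with edgeR, while it passed with DESeq2 (adjusted p = 0.0124), and it was named after its values were seen. It fell from 241, 243 and 251 FPKM in untreated cells to 16.7, 13.0 and 18.8 FPKM under TGF-β1 (log2 fold change -3.86, adjusted p = 4.1e-09) and stood at 63.3, 68.4 and 69.2 FPKM with G-MDSC and 82.6, 92.1 and 103 FPKM with M-MDSC supernatant. The arms did not overlap, but the log2 fold change of 0.47 ± 0.12 between them had an adjusted p of 0.263.

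Psmd5, Lif and Nfkbiz were the 3 genes that passed as lower when M-MDSC is set against G-MDSC supernatant, and chemokines and cytokines are described with them. Against TGF-β1 their log2 fold changes were 0.66, 1.09 and 0.73 with G-MDSC and 0.09, 0.31 and 0.18 with M-MDSC supernatant. Of the 30 chemokine and cytokine genes 21 were tested, and 7 (33.3%, against 2.76% of all genes) were lower and 0 higher at an unadjusted p below 0.05, with a median log2 fold change of -0.18 and 1 gene, Lif, passing the test (4 genes with DESeq2). The interferon-induced chemokine Cxcl10 was counted in the interferon-γ list instead and was on the higher side, at 1.45, 1.18 and 1.26 FPKM with G-MDSC and 1.48, 1.58 and 1.73 FPKM with M-MDSC supernatant (0.30 ± 0.13, unadjusted p = 0.0469, adjusted p = 0.780). Mean log2(FPKM + 1) over the chemokine and cytokine list was 3.03, 3.05 and 3.07 with G-MDSC and 2.89, 2.83 and 2.87 with M-MDSC supernatant, with 2.57 to 2.62 under TGF-β1 alone and 3.19 to 3.25 in untreated cells. Against TGF-β1, 10 members passed as higher and 1 as lower with G-MDSC supernatant (2.69% and 2.38% of all genes did). With M-MDSC supernatant 4 passed as higher and 1 as lower (2.45% and 1.84% of all genes), with the TGF-β1 libraries shared. Without M-MDSC replicate 3 the list's median was -0.24 with 6 members lower, and with M-MDSC replicate 3 alone it was -0.20.

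Lif (ENSMUSG00000034394, chr11:4257557-4272514) encodes leukemia inhibitory factor, a secreted cytokine of the IL-6 family. It stood at 3.55, 3.61 and 3.56 FPKM with G-MDSC and at 2.12, 2.22 and 1.89 FPKM with M-MDSC supernatant, a log2 fold change of -0.78 ± 0.08 (adjusted p = 0.00314). The M-MDSC libraries were near the untreated cells (1.92, 2.14 and 1.82 FPKM) and TGF-β1 alone (1.63, 1.64 and 1.68 FPKM), while the G-MDSC libraries stood above all of them. Accordingly Lif passed against TGF-β1 with G-MDSC supernatant (1.09, adjusted p = 1.3e-05) and did not with M-MDSC supernatant (0.31, adjusted p = 0.069). Nfkbiz encodes IκBζ, a nuclear protein that helps NF-κB switch on secondary response genes, and showed the same order at 9.21, 9.53 and 9.45 FPKM against 7.14, 6.11 and 6.04 FPKM (-0.54 ± 0.08, adjusted p = 0.0299). Nfkbiz had -0.50 and did not pass without M-MDSC replicate 3 (adjusted p = 0.129), whereas Lif did. It lay between 4.78 and 6.12 FPKM in the 6 libraries without supernatant. Of 17 tested members of the NF-κB list Nfkbiz was the single one with an unadjusted p below 0.05 and the median was -0.05.

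The neutrophil-attracting chemokines Cxcl1 and Cxcl5 had wider gaps at low levels and did not pass with edgeR, while both passed with DESeq2 (adjusted p = 4.61e-05 and 2.92e-05) and with limma on log2(FPKM + 1). Cxcl1 stood at 3.48, 3.60 and 3.60 FPKM with G-MDSC and at 2.02, 1.32 and 1.46 FPKM with M-MDSC supernatant (-1.15 ± 0.21, a 2.21-fold lower level with M-MDSC, unadjusted p = 0.000216, adjusted p = 0.109). Cxcl5 stood at 2.69, 2.48 and 2.38 FPKM against 1.02, 0.933 and 1.32 FPKM (-1.20 ± 0.22, unadjusted p = 0.000255, adjusted p = 0.117). Both had been lowered by TGF-β1, Cxcl5 from 5.79 to 7.76 FPKM in untreated cells to 0.259 to 0.512 FPKM, and both passed as higher against TGF-β1 with either supernatant. The monocyte-attracting chemokine Ccl2 stood at 34.4, 31.9 and 33.3 FPKM against 25.9, 24.6 and 27.9 FPKM (-0.34 ± 0.06, adjusted p = 0.117 with edgeR and 0.00118 with DESeq2), and its neighbour Ccl7 had -0.33 ± 0.12 (adjusted p = 0.679). Il6 stood at 2.72, 2.61 and 2.58 FPKM against 2.21, 2.22 and 1.84 FPKM (-0.33 ± 0.14, adjusted p = 0.772). IL-6 protein had also been added when the MDSCs were induced, before their supernatant was made. Osmr, the receptor subunit for oncostatin M, had -0.18 ± 0.07 with overlapping libraries (adjusted p = 0.748). Csf1 and Ptgs2, among the most abundant members of the list, had log2 fold changes of 0.01 (95% interval -0.14 to 0.16) and -0.08 (-0.22 to 0.07).

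**Figure D4:**
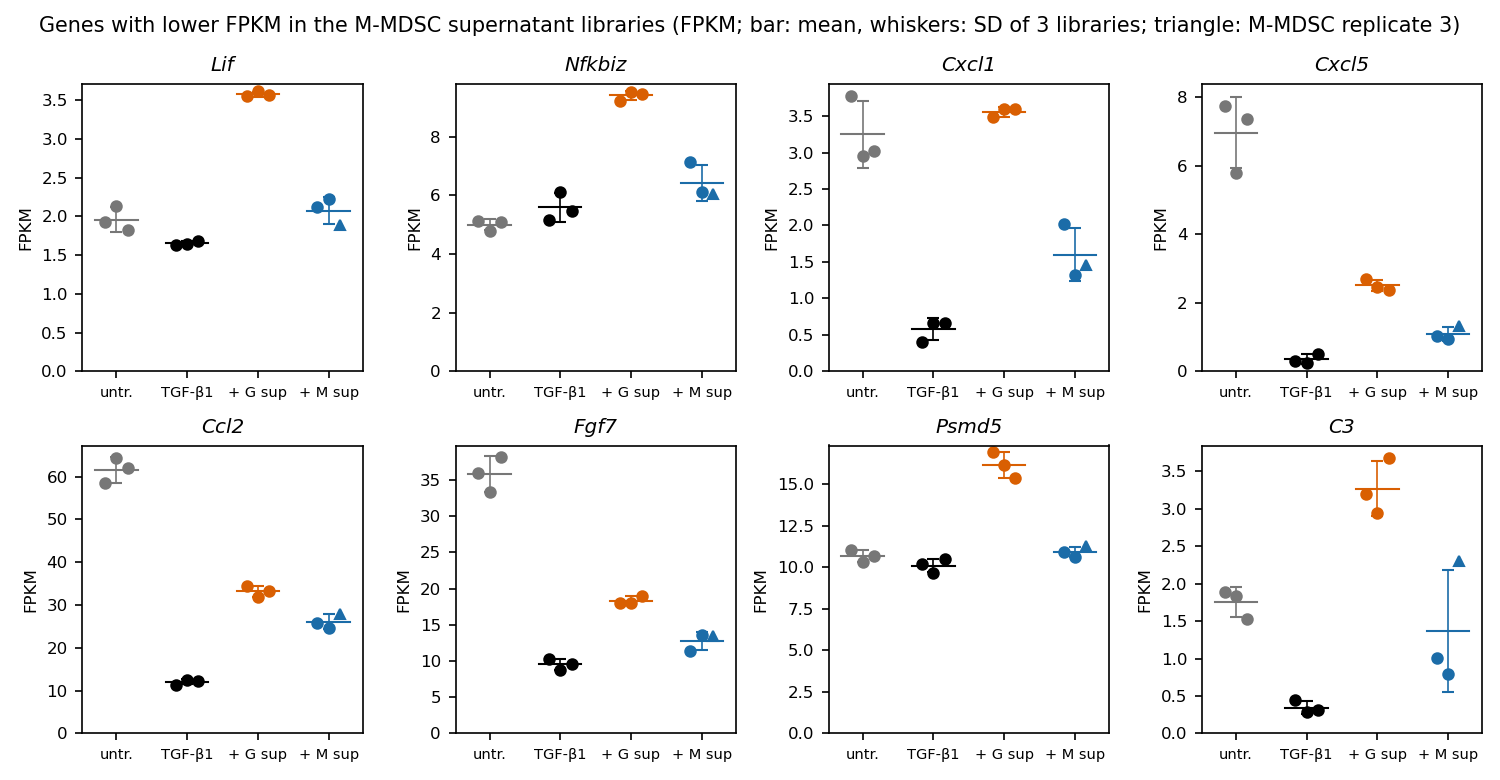
FPKM of 8 genes with lower values in the M-MDSC supernatant libraries, by library (points), with the mean and SD of the 3 libraries of a group, and M-MDSC replicate 3 drawn as a triangle. The G-MDSC libraries lie above the M-MDSC libraries in every panel, and for C3 M-MDSC replicate 3 at 2.30 FPKM lies apart from replicates 1 and 2.

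Psmd5, a chaperone for the assembly of the proteasome, was the remaining gene that passed. It stood at 17.0, 16.1 and 15.4 FPKM with G-MDSC and at 10.9, 10.6 and 11.2 FPKM with M-MDSC supernatant (-0.56 ± 0.05, adjusted p = 0.00174). All libraries other than those with G-MDSC supernatant lay between 9.65 and 11.2 FPKM, and against TGF-β1 the difference was 0.66 with G-MDSC (adjusted p = 1.1e-05) and 0.09 with M-MDSC supernatant (adjusted p = 0.39).

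Of the 20 acute-phase and complement genes 8 were tested, none passed the test with edgeR, 2 were lower and 0 higher at an unadjusted p below 0.05 (against 2.76% and 3.53% of all genes), and the median log2 fold change was -0.09. Without M-MDSC replicate 3 none of the 8 was above 0 and 3 were lower, with a median of -0.15, and with M-MDSC replicate 3 alone 5 were above 0, with a median of 0.11. C3, the central complement protein, which the liver also makes, stood at 3.19, 2.94 and 3.67 FPKM with G-MDSC supernatant and at 1.01, 0.798 and 2.30 FPKM in M-MDSC replicates 1, 2 and 3. The difference was -1.25 ± 0.34 (adjusted p = 0.352 with edgeR and 0.0131 with DESeq2). Without M-MDSC replicate 3 it was -1.85 (adjusted p = 0.014), and with M-MDSC replicate 3 alone -0.51. Hp, which encodes haptoglobin, a liver secretory protein, did not reach the FPKM minimum and stood at 4.40, 3.82 and 4.26 FPKM with G-MDSC supernatant and at 0.0561, 0.0852 and 2.93 FPKM in the M-MDSC replicates. Cfb, another complement gene below the minimum, stood at 1.12, 1.47 and 1.48 FPKM against 0.991, 0.857 and 1.57 FPKM. Ass1, an enzyme of the urea cycle that is on no list and was named after its values were seen, stood at 6.05, 5.07 and 4.37 FPKM against 2.54, 2.57 and 3.69 FPKM (-0.81 ± 0.21, adjusted p = 0.313 with edgeR and 0.022 with DESeq2). In these 4 genes M-MDSC replicate 3 was the highest of the M-MDSC libraries, as it was for the summed hepatocyte markers (91.9 against 1.52 and 1.59 FPKM), and the part of those transcripts in the differences was not tested. Slc39a14, a zinc transporter gene on the list, did not share this order, at 14.2, 14.2 and 15.6 FPKM with G-MDSC and 13.7, 13.5 and 13.1 FPKM with M-MDSC supernatant (-0.12). C1ra and Ptx3 had log2 fold changes of 0.0042 and -0.05.

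Growth factors split by gene rather than by group. Of 39 members 28 were tested, with a median of 0.01. At an unadjusted p below 0.05, 2 were higher (7.14%, against 3.53% of all genes) and 3 lower (10.7%, against 2.76%). The higher ones were the receptor gene Pdgfrb at 0.17 ± 0.04 and the binding protein gene Igfbp6 at 0.13 ± 0.05. Neither passed the test with edgeR (adjusted p = 0.342 and 0.686). Fgf7, a fibroblast-derived growth factor for epithelial cells, stood at 18.0, 18.0 and 19.1 FPKM with G-MDSC and at 11.4, 13.6 and 13.5 FPKM with M-MDSC supernatant (-0.52 ± 0.08, adjusted p = 0.0556), below the untreated cells at 33.3 to 38.2 FPKM and above TGF-β1 alone at 8.70 to 10.3 FPKM. Ereg, an EGF receptor ligand, stood at 22.4, 21.5 and 20.2 FPKM against 17.6, 17.2 and 16.7 FPKM (-0.31 ± 0.05, adjusted p = 0.0765). The libraries of the arms did not overlap in either gene, and neither passed the test with edgeR, while both did with DESeq2. Mmp9, a secreted gelatinase, stood at 2.49, 2.17 and 2.33 FPKM against 1.38, 0.992 and 1.13 FPKM (-0.99 ± 0.23, adjusted p = 0.204 with edgeR, 0.00203 with DESeq2 and 0.0118 with limma on log2(FPKM + 1)), the M-MDSC libraries being at the level of TGF-β1 alone (1.03 to 1.21 FPKM). Of the 18 matrix proteases tested it was the one that was lower at an unadjusted p below 0.05, and 1, Mmp23, was higher, at 2.13, 2.45 and 2.07 FPKM against 2.77, 2.54 and 2.69 FPKM (0.27 ± 0.09, adjusted p = 0.586).

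The next list holds genes of amino acid supply, which the transcription factor ATF4 controls when amino acids are short or mitochondria are stressed. All 28 members were tested, 27 had a log2 fold change above 0, 11 (39.3%, against 3.53% of all genes) were higher with M-MDSC supernatant at an unadjusted p below 0.05 and 0 were lower, and none passed the test with edgeR or with DESeq2. The median was 0.14, and mean log2(FPKM + 1) was 4.78, 4.94 and 4.85 with G-MDSC and 4.92, 5.01 and 5.06 with M-MDSC supernatant, which overlap. TGF-β1 alone stood at 5.05, 4.98 and 5.04, so that the G-MDSC libraries were the lower ones, with a median against TGF-β1 of -0.16 for G-MDSC and -0.02 for M-MDSC supernatant. Trib3, a pseudokinase induced by ATF4, stood at 27.6, 31.6 and 29.3 FPKM with G-MDSC and 31.7, 37.9 and 37.0 FPKM with M-MDSC supernatant (0.27 ± 0.07, adjusted p = 0.352). Psph, the last enzyme of serine synthesis, had 0.14 ± 0.04 (adjusted p = 0.494), and asparagine synthetase, Asns, had 0.24 ± 0.09 (adjusted p = 0.673). Atf4 itself was too variable to compare, at 152, 276 and 118 FPKM against 311, 160 and 287 FPKM. The tRNA synthetase gene Aars, chosen after its values were seen, had 0.14 ± 0.04 (adjusted p = 0.376). The count of 11 members became 5 without M-MDSC replicate 2 or replicate 3 and 4 without G-MDSC replicate 1, so the number of members called depends on single libraries, while the median without M-MDSC replicate 3 was 0.12.

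**Figure D5:**
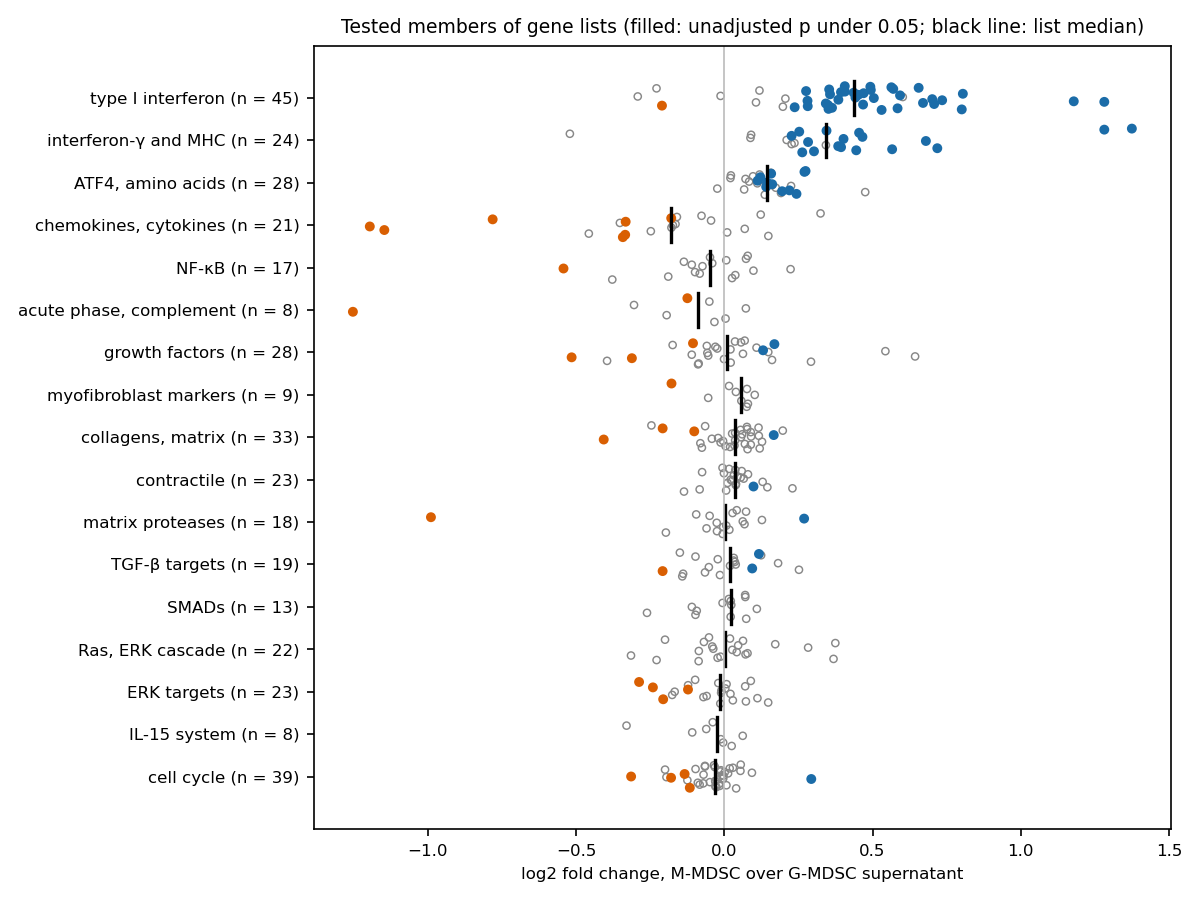
Log2 fold change of M-MDSC over G-MDSC supernatant for every tested member of 17 gene lists, filled where the unadjusted p is below 0.05, with the list median as a black line and the number of tested members beside each name. The 2 interferon lists lie to the right with medians of 0.44 and 0.34, the ATF4 list slightly to the right at 0.14, the chemokine list to the left at -0.18, and the remaining lists lie around 0.

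The study asked how far each kind of MDSC counters the myofibroblastic programme. From this sequencing it reported a stronger reduction of most markers with M-MDSC supernatant. Its qPCR had lower collagen transcripts with M-MDSC supernatant only, and it also used western blots and staining. In the counts tested here the arms were close. The median log2 fold change of the markers against TGF-β1 was -0.21 with M-MDSC and -0.27 with G-MDSC supernatant. Of the 9 marker genes 0 passed the test between supernatants with edgeR or with DESeq2, 1 (Timp1) was lower at an unadjusted p below 0.05, and the 95% intervals of all 9 lay between -0.30 and 0.27 on the log2 scale. Acta2, which encodes α-smooth muscle actin, stood at 1512, 1591 and 1446 FPKM with G-MDSC and at 1508, 1636 and 1639 FPKM with M-MDSC supernatant (0.08, 95% interval -0.04 to 0.19), against 2082, 2175 and 2113 FPKM under TGF-β1 alone. Against TGF-β1, whose libraries both contrasts share, Acta2 had a log2 fold change of -0.43 with M-MDSC (adjusted p = 0.00077) and of -0.51 with G-MDSC supernatant (adjusted p = 0.00022). Col1a1, the main chain of type I collagen, stood at 917, 904 and 868 FPKM against 1039, 881 and 873 FPKM (0.06, 95% interval -0.08 to 0.20). Fn1 had 0.02 (-0.16 to 0.19) and Ccn2, a matrix protein induced by TGF-β, 0.08 (-0.04 to 0.20). Timp1, an inhibitor of matrix proteases, stood at 1256, 1147 and 1073 FPKM against 1045, 1014 and 1005 FPKM (-0.18 ± 0.05, unadjusted p = 0.00686, adjusted p = 0.461). Against TGF-β1, 7 of the 9 markers passed as lower with G-MDSC (2.38% of all genes did) and 4 with M-MDSC supernatant (1.84% of all genes), and Timp1 passed as higher with G-MDSC supernatant (0.35, adjusted p = 0.0027, against 2.69% of all genes), which is no test of a difference between the supernatants.

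The wider matrix and contractile lists were likewise near 0. Of 33 tested collagen and matrix genes 1 was higher and 3 lower at an unadjusted p below 0.05, with a median of 0.04. Dcn, which encodes the small proteoglycan decorin, a binder of TGF-β, stood at 4.65, 5.04 and 5.51 FPKM with G-MDSC and 3.35, 3.77 and 4.32 FPKM with M-MDSC supernatant (-0.41 ± 0.11, adjusted p = 0.342). Spp1, which encodes osteopontin, stood at 904, 851 and 873 FPKM against 745, 787 and 738 FPKM (-0.21 ± 0.04, adjusted p = 0.139 with edgeR and 0.00766 with DESeq2). Of 23 tested contractile genes 1 was higher and 0 lower, with a median of 0.04. Of 19 tested TGF-β signalling and target genes 2 were higher and 1 lower, the latter being the activin subunit gene Inhba at -0.21 ± 0.09 (adjusted p = 0.776).

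Among transcripts of the signalling pathways that the study examined, no difference between the supernatants passed. The study measured Ras protein and phosphorylated ERK and SMAD proteins, with M-MDSC supernatant or IL-15 added to TGF-β1. Transcript levels do not show phosphorylation, so the values here are no test of that result. Of 22 genes of the Ras and ERK cascade and of 13 tested SMAD genes and regulators, 0 had an unadjusted p below 0.05, with medians of 0.00 and 0.02, and their 95% intervals lay between -1.07 and 1.02 for the former and between -0.91 and 1.06 for the latter. Of 23 tested transcriptional targets of ERK 4 were lower (17.4%, against 2.76% of all genes) and 0 higher at an unadjusted p below 0.05, none passed the test with edgeR, and 9 had a log2 fold change above 0. Dusp6, a phosphatase that ERK induces and that in turn silences ERK, stood at 26.0, 25.3 and 24.1 FPKM with G-MDSC and 23.3, 20.8 and 21.1 FPKM with M-MDSC supernatant (-0.21 ± 0.06, adjusted p = 0.507). Ier3, an early response gene, had -0.24 ± 0.07 (adjusted p = 0.352), and Spred3, a Ras inhibitor, -0.29 ± 0.10 (adjusted p = 0.586). The median over the ERK targets was -0.01. Of the 16 genes around interleukin-15 and its receptor 8 were tested and 0 had an unadjusted p below 0.05. Il15 itself stood at 0.298, 0.337 and 0.280 FPKM with G-MDSC and at 0.335, 0.361 and 0.543 FPKM with M-MDSC supernatant, its receptor chain gene Il15ra at 0.169 to 0.310 FPKM, and both were below the FPKM minimum. These are transcripts in the MSC libraries and say nothing of protein in the supernatants. The adhesion genes Cd44 and Vcam1 had 95% intervals of -0.36 to 0.08 and -0.29 to 0.24, and Icam1 was at most 0.222 FPKM in the supernatant libraries.

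The remaining lists held few members with an unadjusted p below 0.05. Of 39 cell cycle genes 1 was higher (2.56%) and 4 lower (10.3%), of 21 glycolysis and hypoxia genes 0, of 18 endoplasmic reticulum stress genes 1 higher, of 24 cholesterol genes 2 lower, of 22 antioxidant and metal genes 3 lower (13.6%), of 17 differentiation genes 1 higher, of 15 glucocorticoid and circadian genes 1 lower and of 11 heat shock genes 1 higher, and none of these members passed the test with edgeR or with DESeq2.

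The study's own call rule asks for more than a 2-fold difference in either direction together with an unadjusted p below 0.05. It called 47 genes (0.405%), 24 of them higher (0.207%) and 23 lower (0.198%) with M-MDSC supernatant. Of these 47, 4 passed the adjusted test (Ifit3, Ifit3b, Tgtp1 and Tgtp2), 31 had libraries that did not overlap and 18 carry the symbols of pseudogenes or predicted genes. Several of the genes with the largest changes in mean log2(FPKM + 1) took a high and a low value among libraries of 1 group. Ctdsp2, a phosphatase gene, stood at 33.0, 32.4 and 32.6 FPKM with M-MDSC and at 12.3, 9.12 and 10.1 FPKM with G-MDSC supernatant (1.64 ± 0.41, adjusted p = 0.284), yet the 3 TGF-β1 libraries stood at 34.1, 10.3 and 9.60 FPKM. Rnasek stood at 8.35, 7.19 and 7.42 FPKM against 9.40, 34.8 and 28.6 FPKM (-1.66 ± 0.37, adjusted p = 0.198), and Zc3h11a at 6.19, 6.16 and 6.53 FPKM against 5.02, 0.845 and 1.45 FPKM (1.37 ± 0.60, adjusted p = 0.776). Emc10 and Ppig, seen afterwards, showed the same switch between a low and a high level, with Emc10 at 15.8, 14.8 and 14.5 FPKM against 32.8, 34.5 and 31.1 FPKM and at 17.5, 15.9 and 37.4 FPKM in untreated cells. Of the other genes that the naming rule picked, Rps6-ps3 and Gm10420 were higher at 1.89 and 1.56, and Rpl30-ps1, Rpl15-ps6, Gm5940 and Gm8783 were lower at -1.51, -1.70, -1.70 and -3.24 on the log2 scale, with adjusted p from 0.205 to 0.772. These pseudogenes and predicted genes can share reads with the genes they copy and are uncertain.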

How the data were processed

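Poly(A) RNA of mouse MSCs was sequenced in 12 libraries, 3 in each of 4 groups. According to the submitters' processing notes and the study's methods, the authors trimmed the reads (cutadapt 1.9 and fastp are named), aligned them to GRCm38 with HISAT2 2.0.4 and assembled transcripts with StringTie 1.3.4d. The deposited table holds a count per gene and library, whose counting tool and use of strand are not given in the sources used here, and 44.3% of its counts from 1 to 12 are 4, 8 or 12. The FPKM values beside the counts were deposited by the authors as normalised to exon length and library size, with 0.0001 written where the count is 0, which was read as 0.

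Counts were tested with edgeR 4.0.16 (R 4.3.3), in a quasi-likelihood F test, two-sided, with TMM factors and all 4 groups in 1 fit, and p-values were adjusted by Benjamini-Hochberg over the 11619 genes tested. Errors are standard errors of the log2 fold change, intervals are 95% intervals, and the depth ranged from 73977669 to 84565450 counts per library. Library values and list means are FPKM and log2(FPKM + 1). Alternatives used DESeq2 1.42.0, limma 3.58.1, other filters and scalings, a replicate block and fits that leave out libraries. On simulated data with 11619 genes, the test recovered 35 of 67 genes changed 1.5-fold, 56 of 67 changed 2-fold and 64 of 66 changed 4-fold, with 10 false calls, and with no change simulated it made 0 calls by adjusted p and 33 by the study's fold rule.

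The genes, lists and comparison were chosen with earlier results of these data known. Named genes were those at an adjusted p below 0.05, the 5 largest rises and falls in mean log2(FPKM + 1) among fold-rule genes without overlap, genes the study measured, and per list the 3 most abundant members and up to 3 with the lowest unadjusted p below 0.05. Further members were named after their values were seen, chiefly Usp18, Irf7, Irf9, Stat2, Dhx58, Ifih1, Igtp, Gbp2, Tap1, Psmb10, Ccl7, Il6, Osmr, Cxcl10, Ly6a, Ass1, Hp, Cfb, Mx2, Parp14, Gbp7, Serping1, Oasl1, Oasl2, Trim25, Ifit2, Asns, Aars, Emc10 and Ppig. Promoter windows were read from a RefSeq table for GRCm38.p6, and gene coordinates from the deposited table.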

Additional observations from a re-analysis of the deposited data

Results flagged for a closer look

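Transcripts of genes that were not among those tested stood above their level in the 6 libraries without supernatant, where the 20 hepatocyte markers summed to at most 0.877 FPKM and the 10 kidney tubule markers to at most 0.593 FPKM. The hepatocyte markers summed to 101, 102 and 108 FPKM in G-MDSC replicates 1, 2 and 3 and to 91.9 FPKM in M-MDSC replicate 3, and all 20 markers had more than 3 counts in each of these 4 libraries. The kidney tubule markers summed to 49.4, 64.0 and 59.7 FPKM in G-MDSC replicates 1, 2 and 3 and to 18.6, 16.3 and 84.7 FPKM in M-MDSC replicates 1, 2 and 3, with all 10 markers over 3 counts in each. Where these transcripts came from was not tested.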

How the results depend on the processing

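Of 1275 values of 75 named genes under the 17 alternatives, 1264 kept their direction. Ifit1, Ifit3, Irgm1, Lgals9, Lif, Parp12, Psmd5 and Tgtp1 had an adjusted p below 0.05 under every alternative that kept more than 1 M-MDSC library. The 17 genes at an adjusted p below 0.05 became 39 with only the supernatant libraries in the fit, 111 with DESeq2 (67 higher and 44 lower, all 17 genes among them), 29 with limma on log2(FPKM + 1), 32 with M-MDSC replicate 3 alone and 47 (11 higher and 36 lower) with the FPKM minimum taken over all 12 libraries and M-MDSC replicate 3 left out, the last pair of settings being chosen after seeing the data. With M-MDSC replicate 3 alone the spread comes from the other groups, that library being assumed to vary like them, so those counts have no replication in the M-MDSC arm. Leaving out 1 library gave 9 to 17 genes, 9 without G-MDSC replicate 1, 11 without G-MDSC replicate 2 and, with 8 higher and 7 lower, 15 without M-MDSC replicate 1. The 47 genes of the study's fold rule became 442 with no filter, 24 with limma on log2(FPKM + 1), 98 with M-MDSC replicate 3 alone and 119 with the wider minimum and without that replicate. The non-overlapping genes were 2299 without M-MDSC replicate 3, where fewer libraries have to be separate. The ATF4 list's 11 members became 4 to 12 on leaving out 1 library and 5 with the wider minimum and without M-MDSC replicate 3. The chemokine list's 7 members became 4 without G-MDSC replicate 1. Apart from the fewer libraries and the changed set of genes, the cause of these shifts was not tested. The log2 fold changes of 3 genes that never passed changed sign. On leaving out 1 library Col1a1 ranged from -0.030 to 0.10, Fn1 from -0.032 to 0.11 and Vcam1 from -0.15 to 0.056, and with M-MDSC replicate 3 alone they were -0.038, -0.043 and 0.18.

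With the replicate number as a block, 12 genes passed (10 higher and 2 lower), and Cmpk2, Nfkbiz, Isg15, Bst2 and Gbp3 did not, with adjusted p from 0.0659 to 0.106. The fold rule then called 50 genes. The correlations of same-numbered libraries were -0.0474, 0.108 and 0.0491, and those of differently numbered ones ran from -0.163 to 0.101. Of the 6 libraries, 3 correlated best with their own number. With so few libraries these values cannot tell whether the numbers pair them.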
